A study of Mus musculus and Rattus norvegicus with 18 samples.

Results

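The Atf4, Atf5 and Ddit3 stress transcription axis was followed through 10 listed genes: Atf4, Atf5, Atf3, Ddit3, Cebpb, Ppp1r15a, Ppp1r15b, Trib3, Chac1 and Nupr1. They were listed by symbol, and the list was drawn up with earlier results of these data known. All 10 were found in the heart RNA table (55487 genes), in the heart footprint table (26398 reading frames of 17866 genes) and in the H9C2 table (32883 genes). In the footprint table they held 18 frames with at least 1 footprint, of which 10 were the longest frame of their gene, 7 lay upstream of it and 1 lay downstream. A second mouse gene ID with the symbol Ddit3 had 0 counts in every heart library and was set aside. Its frame in the footprint table, of 31 codons, lies within the span of the 34-codon Ddit3 upstream frame described below. How reads that fit both frames were counted is not known.

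The study deleted Mettl1, the catalytic subunit of the enzyme that places N7-methylguanosine on a set of tRNAs. Hearts came from 4-week-old C57BL/6 mice, either controls (Ctrl) or carriers of a conditional Mettl1 knockout (cKO), and each genotype had 2 RNA-seq and 2 Ribo-seq libraries. Ribo-seq sequences the RNA fragments that ribosomes protect, here called footprints. H9C2 is a myoblast line from rat heart (Sprague-Dawley per the labels), grown in high-glucose medium with serum. It was measured by RNA-seq in 3 WT libraries and in 3 libraries of 1 Mettl1-null line made with a CRISPR-Cas9 frameshift. The labels name neither the Cre driver nor the deleted exon, so the heart cells that lost Mettl1 are not known from them, and a null line of 1 origin cannot separate the loss of Mettl1 from other traits of that line. Nor do they say whether replicates came from different animals or cultures, and the p-values therefore cover the spread among these libraries alone, which may be technical.

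The genes belong to the integrated stress response. In that pathway kinases phosphorylate the initiation factor eIF2, which lowers protein synthesis in general while the main coding sequences of a few mRNAs, Atf4 among them, are translated more. Atf4 and Atf5 mRNAs carry short upstream reading frames that keep ribosomes from the main frame until eIF2 is phosphorylated. ATF4 is a bZIP transcription factor that turns on amino acid and redox genes together with Ddit3, Trib3, Chac1 and Nupr1. Ppp1r15a and Ppp1r15b bring a phosphatase to eIF2 and reverse its phosphorylation. In heart muscle the pathway is known to respond to mitochondrial dysfunction and amino acid shortage.

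ATF4 binds DNA with C/EBP partners at a composite element, and the promoter windows that hold this element or a related one are shown here to describe the members' sequences, since the pathway is known to act through them. RefSeq promoters (GRCm38.p6, 250 bases before to 50 after the start) were found for 9 members with 10 promoters. Ppp1r15b was not matched. The strict element TGATGCAA, searched on both strands, was found in the promoters of Atf3, Chac1 and Nupr1 and in 0.895% of all 32851 promoters. The windows below read 5′ to 3′ on the gene's strand, and the capitals mark the element, which reads TTGCATCA in each of them.
Atf3, chr1:191183410-191183469, minus strand: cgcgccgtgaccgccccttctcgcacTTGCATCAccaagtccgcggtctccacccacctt
Chac1, chr2:119351023-119351082, plus strand: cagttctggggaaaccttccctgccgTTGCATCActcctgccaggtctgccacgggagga
Nupr1, chr7:126625547-126625606, minus strand: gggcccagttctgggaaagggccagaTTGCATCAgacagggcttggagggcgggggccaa
The element began 110 bases before the annotated start in Atf3 and Nupr1 and 193 bases before it in Chac1. Allowing any base at 1 position (TGATGNAA, which includes the strict form) added Trib3, and this form was in 3.97% of all promoters. The promoter of Ppp1r15a held the cAMP response element TGACGTCA, which CREB and ATF proteins bind, 12 bases before its start.
Ppp1r15a, chr7:45526269-45526306, minus strand: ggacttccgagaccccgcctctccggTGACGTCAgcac
That element was in 1.79% of all promoters. The C/EBP palindrome TTGCGCAA and the endoplasmic reticulum stress element were in none of the 10 promoters, against 0.183% and 0.119% of all promoters. A match is a run of letters in this window and was not tied to any binding in these data. None of the 4 members called in heart RNA held the strict element in these windows, and sequence outside them was not searched.

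Total counts per library were 15.05 to 16.84 M for heart RNA, 25.17 to 39.68 M for heart footprints and 90.32 to 94.2 M for H9C2. Mettl1 itself stood at 3.76 to 4.31 CPM (counts scaled for library size, with TMM factors) in Ctrl heart RNA and at 2.49 to 2.52 in cKO, a log2 fold change of −0.69 that did not pass (edgeR adjusted p = 0.0664). Its footprints changed by −1.54 (adjusted p = 0.000149) and its H9C2 RNA by −1.93 (adjusted p = 1.11e-05). Every summed marker level that follows is in CPM. The marker counts stand beside the shares called over all genes tested. These were 8.16% higher and 6.26% lower in heart RNA, and 13.6% higher and 11.5% lower in H9C2. In heart RNA, 4 of 7 tested cardiomyocyte markers fell, and their summed level was 49087 to 49264 in Ctrl and 45292 to 45666 in cKO. Of 5 erythroid markers 3 rose (1454 to 1588 in Ctrl, 1589.9 to 2489.7 in cKO), and 1 of 5 endothelial markers fell (1488 to 1555 and 1377 to 1378). Of 6 smooth muscle and pericyte markers 1 fell (959.6 to 979 and 831 to 851). None of 7 fibroblast markers (1827 to 1933 and 1924 to 2057) and none of 10 tested macrophage and leukocyte markers (531 to 549.7 and 549.6 to 627) passed in the same edgeR test, with 1 and 4 at an unadjusted p under 0.05. Des, the desmin gene, which cardiomyocytes also express, was the only tested skeletal myoblast marker of 7 in heart and rose from 1617 to 2295 CPM, while the other 6 were below 1 CPM. The part of these shifts in the values of the 10 genes was not tested, and in whole hearts fewer cells of a type and less RNA per cell cannot be told apart. In H9C2 the cardiomyocyte genes Myl2 and Ryr2 were at 0 and Myh6, Tnni3 and Actc1 below 1 CPM in every library, and the cardiomyocyte markers summed to 25.4 to 27.7 in WT and 12.5 to 14.4 in null, with Tnnt2 lower (log2 fold change −1.57). Of 5 tested skeletal myoblast markers in H9C2 4 rose and Myog fell (−1.1), with a summed level of 421 to 465 in WT and 585 to 612 in null. Of 5 tested fibroblast markers 1 rose and 3 fell (9351 to 9817 and 7736 to 8164).

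In cKO hearts 4 of the 10 genes rose at the RNA level, namely Atf4, Atf5, Ddit3 and Cebpb, and none fell. At the ribosome 4 frames rose: the upstream frames of Atf4 and Atf5 and the longest frames of Ddit3 and Trib3. In H9C2 without Mettl1 Ddit3 rose as well, but Atf4 and Atf5 fell. Across all genes tested in heart RNA 14.4% were called, 8.16% as higher and 6.26% as lower, which is the background for the members' 4 of 10 and 0 of 10. The members' median log2 fold change was 0.19 in heart RNA, against 0.00 over all 14088 tested genes.

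**Figure D1:**
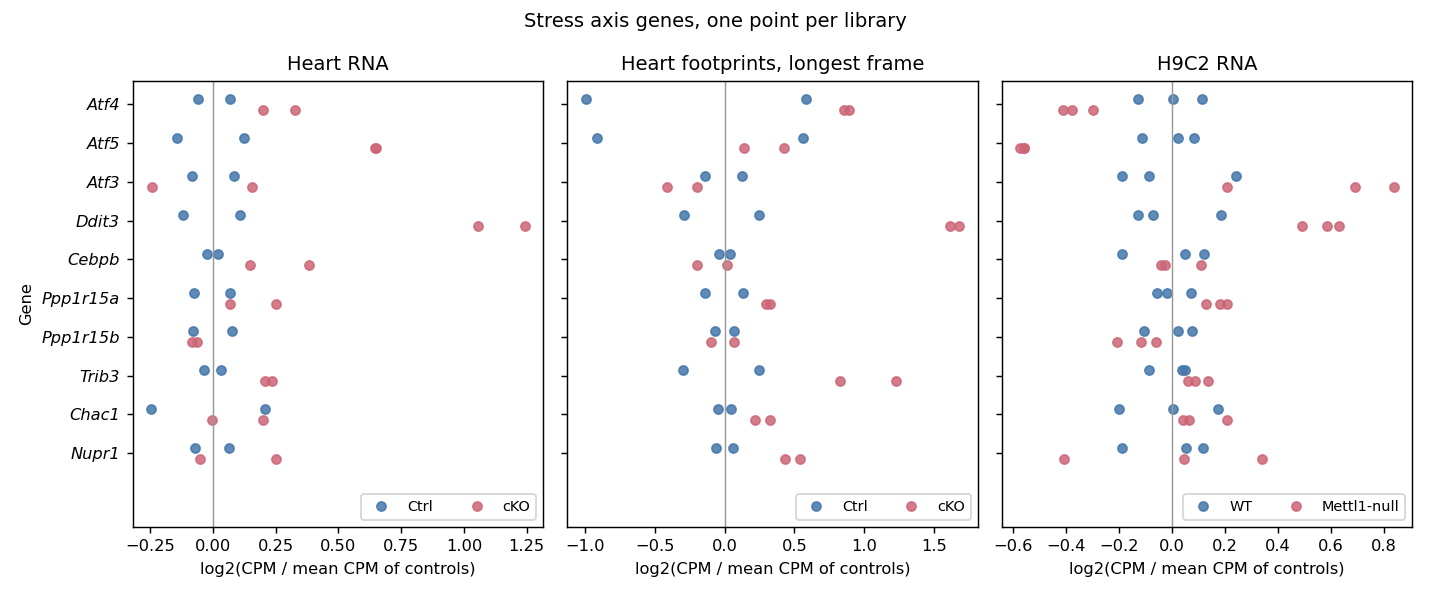
Level of each of the 10 genes in every library, as log2 of CPM over the mean CPM of the controls, for heart RNA, the longest footprint frame in heart, and H9C2 RNA (blue: Ctrl or WT, red: cKO or Mettl1-null, 1 point per library). The red points of Ddit3 lie above the blue ones in all 3 panels, while those of Atf4 and Atf5 lie above in heart RNA and below in H9C2.

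Atf4 (ENSMUSG00000042406, GRCm38 chromosome 15, 80255184 to 80257545) encodes the central factor of the pathway. Its RNA stood at 107 and 97.8 CPM in the Ctrl hearts and at 128 and 117 in the cKO hearts. Both cKO libraries lay above both Ctrl libraries, and the log2 fold change was 0.27 (SE 0.07, n = 2 against 2, edgeR quasi-likelihood adjusted p = 0.0176). The rise is small, and the call was lost in DESeq2 (adjusted p = 0.0663), without Ctrl 2 (0.123) and without cKO 1 (0.18). 

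Atf5 (ENSMUSG00000038539, chromosome 7, 44812256 to 44816658), a relative of Atf4 known for the mitochondrial stress response, stood at 22.8 and 27.5 CPM in Ctrl and at 39.5 and 39.4 in cKO. The cKO libraries were almost equal and well above the Ctrl libraries, with a log2 fold change of 0.65 (SE 0.10, edgeR adjusted p = 0.000335). Atf5 shares 571 bases of its locus with Nup62 and 289 with Il4i1b, and no strand setting of the counting is known here, so reads in those stretches cannot be assigned to 1 of the genes.

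Ddit3 (ENSMUSG00000025408, chromosome 10, 127290793 to 127296291) encodes CHOP, a C/EBP relative linked to cell death under prolonged stress. It showed the largest RNA change of the 10 genes in heart, from 9.53 and 8.15 CPM in Ctrl to 20.9 and 18.4 in cKO. The groups were far apart, with a log2 fold change of 1.16 (SE 0.13, edgeR adjusted p = 2.39e-05). Ddit3 overlaps Mbd6 by 77 bases at its start and Mars1 by 71 bases at its end.

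Cebpb (ENSMUSG00000056501, chromosome 2, 167688915 to 167690432) encodes a C/EBP factor that can pair with ATF4. It stood at 46.3 and 47.8 CPM in Ctrl and at 52.2 and 61.5 in cKO, a log2 fold change of 0.27 (SE 0.08, edgeR adjusted p = 0.0453). Its cKO libraries differed more from each other than its Ctrl libraries did. The call was lost in DESeq2 (0.186), without Ctrl 1 (0.104) and without cKO 2 (0.41).

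The remaining 6 genes did not pass in heart RNA. Trib3, a pseudokinase that ATF4 and CHOP induce and that dampens them, had 4.31 and 4.52 CPM in Ctrl and 5.21 and 5.11 in cKO (log2 fold change 0.22, SE 0.19, edgeR adjusted p = 0.503). Its groups did not overlap, but its counts were 67 to 90 per library. Ppp1r15a, the stress-induced eIF2 phosphatase subunit also called GADD34, had 55.8 and 50.5 CPM in Ctrl and 55.8 and 63.4 in cKO (0.16, SE 0.08, adjusted p = 0.22). Ppp1r15b, its constitutive counterpart, had 64 and 71.2 CPM in Ctrl and 64.8 and 63.8 in cKO (−0.07, SE 0.07, adjusted p = 0.585). The Ppp1r15a groups met at 55.8, and the Ppp1r15b groups overlapped.

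Atf3, a stress-induced factor of the same family, had 24.2 and 21.5 CPM in Ctrl and 19.3 and 25.4 in cKO. The cKO libraries lay on either side of the Ctrl libraries (log2 fold change −0.04, SE 0.13, edgeR adjusted p = 0.893). Chac1, an enzyme that degrades glutathione, had 6.37 and 4.65 CPM in Ctrl and 5.5 and 6.33 in cKO (0.10, SE 0.20, adjusted p = 0.802). Nupr1, a small stress-induced chromatin protein, had 9.59 and 8.72 CPM in Ctrl and 10.9 and 8.85 in cKO (0.12, SE 0.15, adjusted p = 0.679). Of these 3 genes none separated the genotypes. Over the 10 genes, 6 had both cKO libraries above both Ctrl libraries and none had both below, where 27.8% and 27.2% of all tested genes did. The 6 include Ppp1r15a, whose nearest libraries differed by less than the rounding of the values given.

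The footprint table gives a different picture for the members with upstream frames. Footprints of Atf4 and Atf5 lay mostly upstream of the longest frame, and in both genes the upstream frame with the most footprints rose in cKO. Upstream here means before the longest listed frame. In Atf4, Atf5 and Ddit3 that frame is shorter than the known protein, so an upstream frame may overlap the coding sequence missing from it. Whether it does was not checked. Of the 7 upstream frames 5 passed the filter on low counts, and 2 of those rose and none fell, where 5.88% of the 2739 upstream frames tested over all genes were called, 3.65% as higher and 2.23% as lower. Over all 17188 frames tested, 12.8% were called.

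The Atf4 upstream frame of 59 codons (chromosome 15, 80255681 to 80256381 with its introns, plus strand) has the length known for the inhibitory upstream frame of this gene. It held 1262 and 1738 footprints in Ctrl and 3214 and 3063 in cKO, or 51.9 and 52.5 CPM in Ctrl and 79.4 and 87 in cKO. The Ctrl libraries were nearly equal and both cKO libraries were higher, with a log2 fold change of 0.67 (SE 0.09, edgeR adjusted p = 0.000157).

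The longest Atf4 frame in the table, of 288 codons (80256482 to 80257460), is shorter than the known protein, so it does not hold the whole coding sequence. It held 79 and 36 footprints in Ctrl and 163 and 138 in cKO, or 3.25 and 1.09 CPM in Ctrl and 4.03 and 3.92 in cKO. The Ctrl libraries differed by about 3 times and the log2 fold change of 0.92 (SE 0.35) did not pass (edgeR adjusted p = 0.109). The value rests on which Ctrl library is used: it was 1.87 without Ctrl 1, the higher of them (adjusted p = 0.000596), and 0.29 without Ctrl 2 (adjusted p = 0.564).

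For Atf5 the table lists 3 frames on the minus strand of chromosome 7. The upstream frame of 58 codons (44815111 to 44816406 with its intron) held 198 and 233 footprints in Ctrl and 719 and 677 in cKO. That is 8.15 and 7.04 CPM in Ctrl and 17.8 and 19.2 in cKO, and both cKO values were more than 2 times both Ctrl values. The log2 fold change was 1.29 (SE 0.13, edgeR adjusted p = 1.92e-05). Its first bases lie in the stretch shared with Nup62 and Il4i1b.

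The shorter Atf5 upstream frame, of 19 codons (44815559 to 44815618), had 1.44 and 1.81 CPM in Ctrl and 2.15 and 1.99 in cKO (log2 fold change 0.34, SE 0.29, edgeR adjusted p = 0.528). The longest frame, of 217 codons (44812847 to 44813500), is again shorter than the known protein. It had 2.18 and 0.785 CPM in Ctrl and 1.63 and 1.99 in cKO (0.33, SE 0.40, adjusted p = 0.684), with both cKO values inside the range of the Ctrl values. As in Atf4, the footprints on this frame were few (26 to 70 per library) and Ctrl 1 was the higher Ctrl library.

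**Figure D2:**
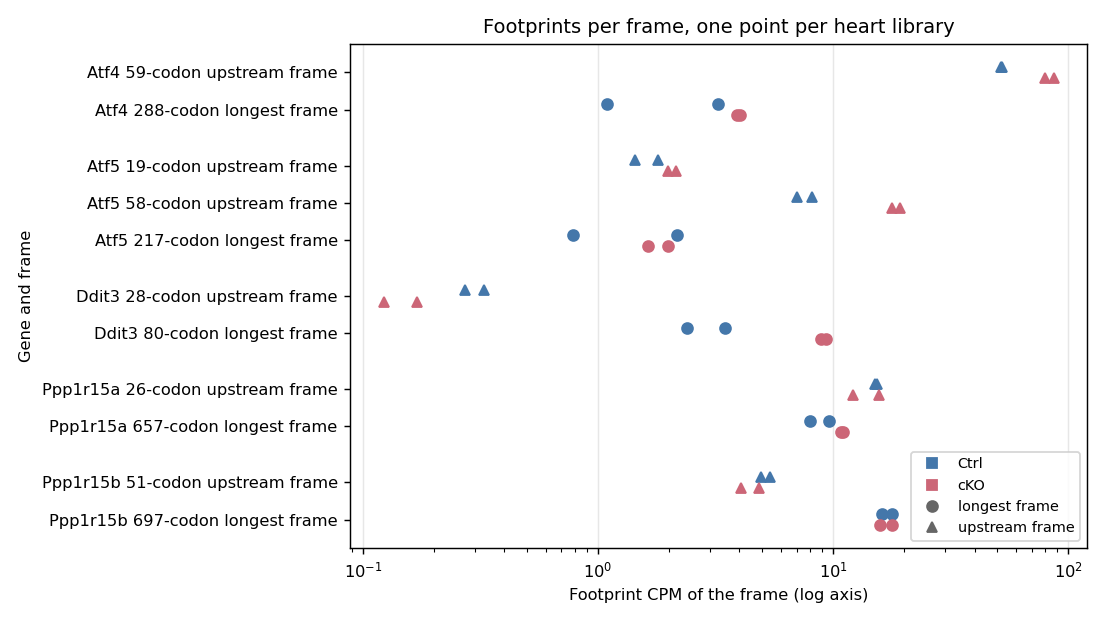
Footprints on each frame of the 5 genes with upstream frames, in CPM on a log axis, 1 point per heart library (blue: Ctrl, red: cKO, triangles: upstream frames, circles: longest frames). The 34-codon frame of Ddit3 is left out because it had 0 footprints in Ctrl. The triangles of the Atf4 59-codon and Atf5 58-codon frames lie to the right of the circles of their genes, with the cKO points at 79.4 and 87 and at 17.8 and 19.2 CPM.

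Among the listed frames of Ddit3 the pattern was the reverse, with most footprints on the longest frame. That frame of 80 codons (chromosome 10, 127295849 to 127296091, plus strand), also shorter than the known protein, held 84 and 79 footprints in Ctrl and 379 and 314 in cKO. In CPM it stood at 3.46 and 2.39 in Ctrl and at 9.36 and 8.92 in cKO. This was the largest footprint change of the 10 genes, with a log2 fold change of 1.66 (SE 0.20, edgeR adjusted p = 6.38e-05), and the frame lies outside the overlaps with Mbd6 and Mars1.

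The upstream frames of Ddit3 were too thin to test. The frame of 34 codons (127290829 to 127293753 with its introns), the length known for the regulatory upstream frame of this gene, had 0 footprints in both Ctrl libraries and 2 and 7 in cKO. Set against a floor of 3 counts over the Ctrl group, the depth-scaled ratio of cKO to Ctrl was 2.28. The ratio takes the cKO counts as exact, so it is not a lower bound on the fold change. The frame begins in the overlap with Mbd6. A second upstream frame, of 28 codons (127295435 to 127295765), had 8 and 9 footprints in Ctrl and 5 and 6 in cKO, a depth-scaled ratio of 0.491 with an exact 95% counting interval from 0.208 to 1.11. The interval spans 1, so no difference was detectable there at this depth. The 28-codon frame ends shortly before the 80-codon frame, which lacks part of the coding sequence. It may therefore lie in that part and not upstream of the coding sequence, which was not checked.

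Trib3 had a single frame, of 354 codons (chromosome 2, 152338207 to 152343327, minus strand). It had 1.93 and 2.81 CPM in Ctrl and 4.2 and 5.54 in cKO, so every cKO value exceeded every Ctrl value, and the log2 fold change was 1.02 (SE 0.25, edgeR adjusted p = 0.0129). The call was lost without Ctrl 1 (0.79, adjusted p = 0.063) and without cKO 2 (0.80, adjusted p = 0.12). Nupr1, with 1 frame of 80 codons (chromosome 7, 126624903 to 126625434, minus strand), rested just outside the threshold. Its footprints stood at 6.46 and 5.92 CPM in Ctrl and at 8.99 and 8.35 in cKO (0.49, SE 0.16, adjusted p = 0.0554). A long noncoding RNA gene, Gm39087, covers the whole Nupr1 locus. Chac1, with 1 frame of 223 codons, had 8.19 and 8.73 CPM in Ctrl and 9.85 and 10.6 in cKO (0.27, SE 0.14, adjusted p = 0.263).

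No frame of either phosphatase subunit passed. The Ppp1r15a upstream frame of 26 codons (chromosome 7, 45526009 to 45526089, minus strand) had 15.4 and 15.1 CPM in Ctrl and 12.2 and 15.7 in cKO (log2 fold change −0.13, SE 0.14, edgeR adjusted p = 0.621). Its longest frame of 657 codons had 9.63 and 7.97 CPM in Ctrl and 10.8 and 11 in cKO (0.32, SE 0.15, adjusted p = 0.194). For Ppp1r15b the upstream frame of 51 codons (chromosome 1, 133131517 to 133131672, plus strand) had 5.39 and 4.95 CPM in Ctrl and 4.05 and 4.83 in cKO (−0.22, SE 0.19, adjusted p = 0.538). The Ppp1r15b longest frame of 697 codons had 17.8 and 16.2 CPM in Ctrl and 15.9 and 17.8 in cKO (−0.01, SE 0.12, adjusted p = 0.971). In both genes the fitted change of the upstream frame was below 0 and the groups of the longest Ppp1r15b frame overlapped.

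Atf3 footprints on the longest frame of 180 codons (chromosome 1, 191171482 to 191177467, minus strand) stood at 23.7 and 19.7 CPM in Ctrl and at 16.3 and 18.9 in cKO. Both cKO values lay below both Ctrl values, which no other longest frame of the 10 genes showed, but the log2 fold change of −0.30 (SE 0.13) did not pass (edgeR adjusted p = 0.139). It was −0.44 without Ctrl 2 (adjusted p = 0.0338) and −0.17 without Ctrl 1 (adjusted p = 0.506). The 1 downstream frame of the set, the Atf3 frame of 142 codons, held 8 and 5 footprints in Ctrl and 6 and 1 in cKO, a ratio of 0.408 with an exact 95% counting interval from 0.138 to 1.1. Cebpb, whose single frame of 296 codons spans the full-length protein, had 77.4 and 73.3 CPM in Ctrl and 65.9 and 76.5 in cKO (−0.08, SE 0.09, adjusted p = 0.66), with overlapping groups.

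Over the longest frames 2 of the 10 genes rose and none fell, where 14.7% of 13287 longest frames were called, 7.92% as higher and 6.8% as lower. The median log2 fold change of the 10 longest frames was 0.32, against −0.01 over all longest frames. Both cKO libraries exceeded both Ctrl libraries in 6 of the 10 (27.6% over all longest frames), and lay below them in 1 (28.1%). Which frame stood for a gene mattered: with the frame of most footprints, or with all frames summed, 5 of the 10 genes rose, namely Atf4, Atf5, Ddit3, Nupr1 and Trib3. With summed frames the log2 fold change was 0.69 for Atf4 (edgeR adjusted p = 6.24e-05) and 1.08 for Atf5 (3.24e-05), against 0.92 and 0.33 on their longest frames.

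The division of footprints between upstream and longest frames placed Atf4 and Atf5 near the top of all genes. The share of a gene's upstream and longest-frame footprints that fell upstream was 96 ± 2.73% for Atf4 in Ctrl and 95.4 ± 0.365% in cKO (SD, n = 2 each). Summed over the 4 libraries this ranked Atf4 51st of 2544 genes with an upstream frame and at least 100 such footprints, whose median share was 6.65%. For Atf5 the share was 86.7 ± 7.34% in Ctrl and 91.9 ± 0.706% in cKO, rank 77. Neither gene's share moved by more than the spread of the Ctrl libraries. In both genes the longest listed frame lacks part of the coding sequence, so some footprints counted as upstream may lie on that part.

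Ppp1r15a had 63.5 ± 2.81% of its footprints upstream in Ctrl and 55.9 ± 3.93% in cKO (rank 198), and Ppp1r15b 23.3 ± 0.113% and 20.8 ± 0.768% (rank 567). Both shares were lower in each cKO library than in each Ctrl library. For Ppp1r15b the 95% Wilson intervals overlap (20 to 26.9 and 20.4 to 26.7 in Ctrl, 17.7 to 23.2 and 18.7 to 24.4 in cKO). For Ppp1r15a only those of Ctrl 1 (57.6 to 65.3) and cKO 2 (55.5 to 61.8) overlap across genotypes. How many other genes separate in this way was not counted. Ddit3 ranked 1544th, below the median, with 9.46 ± 1.08% in Ctrl and 2.89 ± 1.53% in cKO. By library the Ddit3 share was 8.7% (95% Wilson interval 4.47 to 16.2) and 10.2% (5.47 to 18.3) in Ctrl, and 1.81% (0.881 to 3.7) and 3.98% (2.34 to 6.68) in cKO. The intervals of both Ctrl libraries overlap that of cKO 2, and these intervals cover counting error only. The upstream frames of Ddit3 together held 7 to 13 footprints in a library, against 79 to 379 on the 80-codon frame. The 80-codon frame lacks part of the coding sequence, so some footprints counted as upstream may lie on that part. The share and rank of Ddit3 carry this limit. They also carry that of the second Ddit3 gene ID, whose frame lies within the span of the 34-codon upstream frame.

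**Figure D3:**
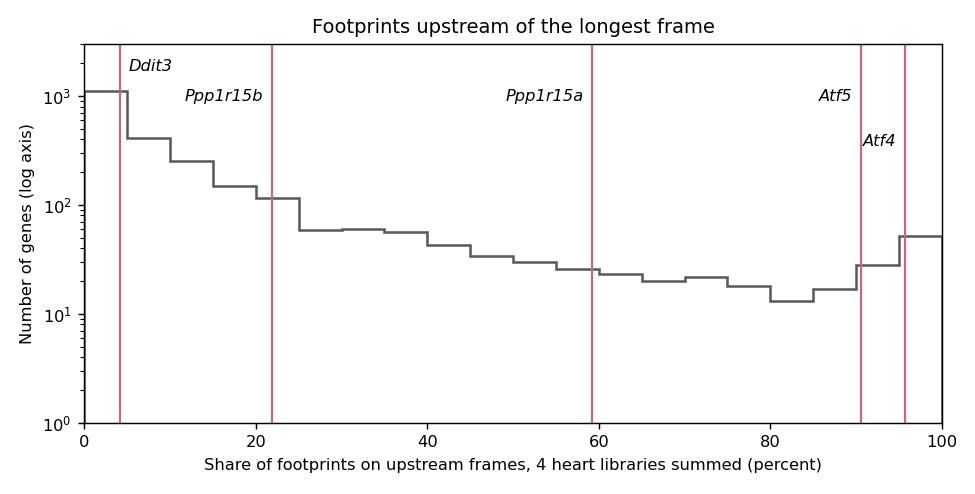
Number of genes (log axis) by the percentage of their footprints that fell on upstream frames, over 2544 genes with the 4 heart libraries summed, with the 5 members that have upstream frames drawn as vertical lines. Atf4 and Atf5 lie at the far right end, Ppp1r15a in the middle, and Ddit3 at 4.14%, below the median of 6.65%.

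Per codon the contrast was larger, since upstream frames are short. The Atf4 59-codon frame held 0.885 footprint CPM per codon in Ctrl and 1.41 in cKO, against 0.00753 and 0.0138 on the 288-codon frame. For Ppp1r15a these levels were 0.587 and 0.537 on the 26-codon frame and 0.0134 and 0.0166 on the longest. For Atf5 they were 0.131 and 0.319 on the 58-codon frame and 0.00683 and 0.00834 on the longest. Among the longest frames the per-codon level in Ctrl was highest for Cebpb (0.255), followed by Atf3 (0.121), Nupr1 (0.0774) and Chac1 (0.0379), and low for Atf4 (0.00753), Atf5 (0.00683) and Trib3 (0.0067), which did not differ beyond their spread. Chac1 and Ddit3 (0.0365) did not differ beyond their spread in Ctrl, and in cKO Ddit3 (0.114) stood beside Nupr1 (0.108) and Atf3 (0.0977).

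Whether an upstream frame changed by another amount than the longest frame of its gene was tested as an interaction of genotype and frame. None of the 5 member frames passed in edgeR, and across all genes 0 of 3613 frames did (0%), with 399 at an unadjusted p under 0.05. The Atf5 58-codon frame was the 1 member frame at an unadjusted p under 0.05 (difference of log2 changes 0.88, SE 0.42, edgeR adjusted p = 0.451). For Atf4 the difference was −0.33 (SE 0.40, adjusted p = 0.833), for the Atf5 19-codon frame −0.08 (SE 0.59, 0.982), for Ppp1r15a −0.46 (SE 0.29, 0.593) and for Ppp1r15b −0.21 (SE 0.30, 0.875). The longest Atf4 and Atf5 frames, which enter these differences, held 26 to 163 footprints in a library. The interaction was run in edgeR alone.

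Translational efficiency, the footprints on the longest frame relative to RNA, was tested as an interaction of genotype and assay. None of the 10 genes passed in edgeR, where 0.112% of 12476 genes did, and 4 had an unadjusted p under 0.05. These 4 were Trib3 at 0.78 (SE 0.32, edgeR adjusted p = 0.456), Atf4 at 0.70 (SE 0.31, 0.49), Ddit3 at 0.51 (SE 0.24, 0.506) and Cebpb at −0.36 (SE 0.13, 0.421). Of all genes 1201 were at an unadjusted p under 0.05. DESeq2 gave an adjusted p for 5 of the 10 genes (Atf3, Atf4, Cebpb, Ppp1r15a and Ppp1r15b), and none passed. In edgeR the 6 genes other than those 4 ranged from −0.29 (Atf5) to 0.37 (Nupr1). The Atf4 value was 1.53 without the Ctrl 1 libraries (adjusted p = 0.0389) and 0.08 without the Ctrl 2 libraries (adjusted p = 0.94), so it too rests on which Ctrl libraries are used.

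In the H9C2 line Ddit3 rose without Mettl1 while Atf4 and Atf5 fell. These 3 of 10 genes were called where 25.1% of all 14801 tested genes were, 13.6% as higher and 11.5% as lower, so the count is near the background. The members' median log2 fold change was 0.06, against 0.00 over all tested genes.

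Atf4 RNA (rat ENSRNOG00000017801) stood at 548, 589.8 and 499.9 CPM in WT and at 410.3, 444 and 419.6 in null. Every null library lay below every WT library, with a log2 fold change of −0.36 (SE 0.07, n = 3 against 3, edgeR adjusted p = 0.00478). Atf5 (ENSRNOG00000020060) stood at 295, 307 and 268 CPM in WT and at 197, 195 and 197 in null. The null libraries were close together and the WT libraries well above them (−0.56, SE 0.06, adjusted p = 0.00023). Ddit3 (ENSRNOG00000006789) stood at 40.3, 48.2 and 38.8 CPM in WT and at 59.6, 63.6 and 65.6 in null (0.57, SE 0.09, adjusted p = 0.00196). Its groups did not overlap either.

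Of the other 7 genes, Atf3 stood at 1.98, 2.67 and 2.13 CPM in WT and 3.65, 4.04 and 2.61 in null (0.60, SE 0.20, adjusted p = 0.0592 in edgeR). Null 3 fell inside the WT range. Ppp1r15a had 57.5, 61.2 and 55.9 CPM in WT and 67.2, 66 and 63.6 in null (0.17, SE 0.06, adjusted p = 0.0564), with no overlap. Both Atf3 and Ppp1r15a passed in DESeq2 (0.0422 and 0.0411), with library totals alone as scaling (0.0458 and 0.0217) and without WT 2 (0.0315 and 0.0204), and Atf3 also without null 3 (0.032).

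Trib3 had 55.3, 54.9 and 50.3 CPM in WT and 55.8, 58.8 and 56.8 in null (0.09, SE 0.06, adjusted p = 0.291 in edgeR), and Ppp1r15b differed by −0.13 (SE 0.06, 0.185). Chac1 (0.10, SE 0.10, 0.47), Cebpb (0.01, SE 0.08, 0.92) and Nupr1 (0.02, SE 0.17, 0.938) did not pass either. Nupr1 was the most scattered, with null values of 46.1, 77.5 and 63.1 CPM around WT values of 63.5, 66.4 and 53.7. Over the 10 genes 3 had all null libraries above all WT libraries and 2 had all below, where 22.8% and 19.8% of all tested genes did.

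**Figure D4:**
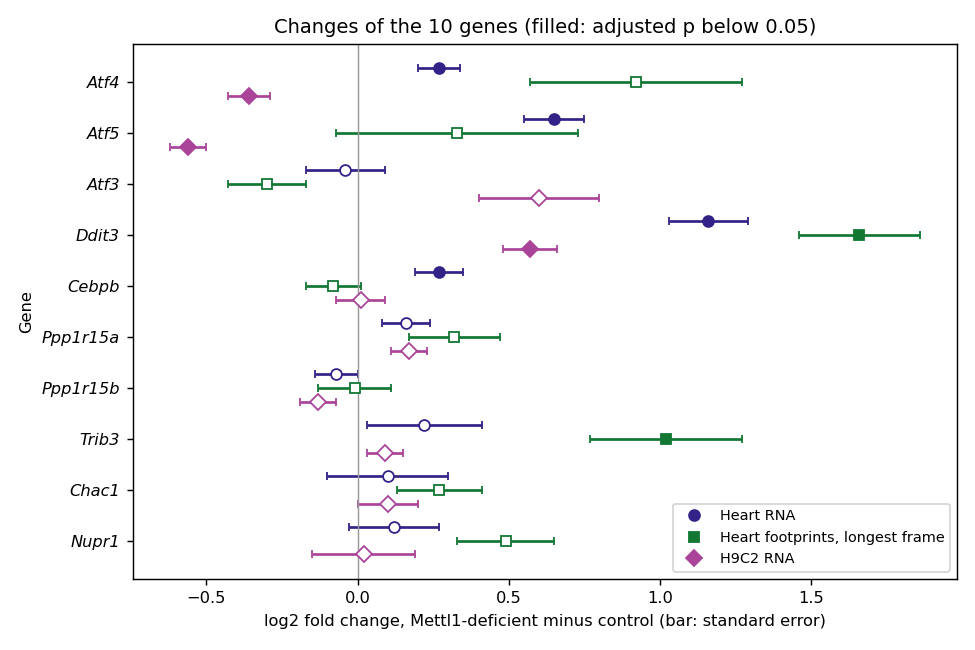
Log2 fold change of the 10 genes, Mettl1-deficient minus control, with the standard error as the bar (circles: heart RNA, squares: longest footprint frame in heart, diamonds: H9C2 RNA, filled where the adjusted p was below 0.05). Ddit3 is filled and above 0 in all 3 measurements, at 1.16, 1.66 and 0.57, while Atf4 and Atf5 are filled on opposite sides in heart RNA and H9C2.

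Among the listed genes that ATF4 is known to induce, more rose than fell in cKO heart and more fell than rose in H9C2. Like the members, this list was drawn up with earlier results of these data known, so its counts can reflect that choice. Of 25 tested target genes 9 rose and 3 fell in heart RNA (median log2 fold change 0.24), and of 23 tested in footprints 11 rose and 2 fell (0.53). In H9C2 3 of 27 rose and 14 fell (−0.28). Over all features tested 8.16% rose and 6.26% fell in heart RNA, 7.92% and 6.8% in longest frames, and 13.6% and 11.5% in H9C2, with medians of 0.00, −0.01 and 0.00. Beside these counts stand the cardiomyocyte markers that were lower and the erythroid markers that were higher in cKO hearts, and, in null cells, the skeletal myoblast markers of which 4 rose and Myog fell. Their part in these counts was not tested.

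In heart RNA Gdf15, a secreted stress cytokine, rose by 5.01 (SE 0.22, edgeR adjusted p = 1.08e-09), from 0.671 ± 0.312 to 21.9 ± 1.33 CPM (SD, n = 2 each), and Slc7a5, an amino acid transporter, by 1.2 (SE 0.13, 1.4e-05). Gpt2, a mitochondrial alanine transaminase, changed the other way, at −0.76 (SE 0.08, 8.55e-06). Footprints moved alike, at 5.05 for Gdf15, 1.72 for Slc7a5 and −1.06 for Gpt2. The other genes of the list that fell, named after their values were seen, were Shmt2 and Vldlr in RNA (−0.34 and −0.22) and Shmt2 in footprints (−0.42). The heart RNA count for the list ranged from 7 to 13 over the alternatives and was 7 in DESeq2 and without cKO 1 (6 higher and 1 lower), and 8 without Ctrl 1.

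In H9C2 the listed genes with the smallest adjusted p fell. Asns, asparagine synthetase, went from 230.3 ± 4.42 to 113 ± 4.59 CPM (−1.03, SE 0.05, edgeR adjusted p = 4.75e-06, n = 3 against 3). Mthfd2, of mitochondrial folate metabolism, changed by −0.86 (SE 0.05, 7.82e-06) and Psat1, of serine synthesis, by −0.79 (SE 0.05, 1.29e-05). The 3 that rose, named after their values were seen, were Stc2 (0.72), Adm2 (2.16, from 0.118 to 0.535 CPM) and Fgf21, which had 0 counts in WT and 0.201 CPM in null. Asns, Slc7a5 and Aldh18a1, also singled out after their values were seen, rose in heart RNA (0.77, 1.2 and 0.69, adjusted p = 0.0245, 1.4e-05 and 0.00155) and fell in H9C2 (−1.03, −0.58 and −0.38, adjusted p = 4.75e-06, 7.48e-05 and 0.00106). The difference between the systems was not tested, since the tables come from different species.

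Of 6 listed CHOP targets 2 rose in heart RNA, Bcl2 (1.01, SE 0.16, edgeR adjusted p = 0.000428) and Dnajb9 (0.25, SE 0.08, 0.0423). Over all features tested 8.16% rose in heart RNA and 7.92% in longest frames, and whether the list differs from other genes was not tested. Bcl2 protects cells from death and Dnajb9 is a chaperone of the endoplasmic reticulum, and CHOP is known to repress Bcl2. In footprints Tnfrsf10b, a death receptor, rose by 1.28 (SE 0.20, adjusted p = 0.000522 in edgeR) and Bcl2 by 1.58 (SE 0.39, 0.014). Dnajb9 did not pass with DESeq2 (0.21), nor with Ctrl 2, cKO 1 or cKO 2 left out (0.247, 0.256 and 0.0685), and the Bcl2 footprint call was lost without Ctrl 1 (0.0617) and without cKO 2 (0.11). None of 4 tested passed in H9C2 with edgeR, 1 was at an unadjusted p under 0.05, and the count was at most 1 in the other fits, DESeq2 among them.

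In heart the genes of the machinery that acts before ATF4 gave counts near the background of 14.4% in RNA and 14.7% in longest frames. None of 10 genes for eIF2 kinases and their relay passed in RNA or in footprints with edgeR (1 and 2 at an unadjusted p under 0.05), and none of 8 genes for eIF2 and eIF2B subunits passed in RNA (1 unadjusted). In footprints Eif2s2, the beta subunit of eIF2, rose by 0.55 (SE 0.10, adjusted p = 0.00257). In H9C2 the kinase genes Eif2ak1 and Eif2ak2 rose by 0.23 and 0.28 and Eif2ak4 changed by −0.23 (adjusted p = 0.00698, 0.0111 and 0.0295), and Eif2s3 and Eif2s2 changed by −0.21 and −0.24 (0.0145 and 0.0361), which makes 3 of 10 and 2 of 8 where 25.1% of all genes were called. Of these 5 H9C2 genes only Eif2ak1 passed under every alternative run. The catalytic subunits of protein phosphatase 1, which Ppp1r15a and Ppp1r15b recruit, did not pass in any of the tables, with 0, 0 and 1 at an unadjusted p under 0.05 in heart RNA, footprints and H9C2. These are RNA and ribosome levels, and the phosphorylation of eIF2 was not measured.

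The counts for relatives of the members stand beside 14.4% of all genes called in heart RNA and 14.7% of longest frames, and whether the list differs from other genes was not tested. Of 22 tested family genes 1 fell in RNA (Chac2, −0.52, edgeR adjusted p = 0.0335) and 2 rose in footprints (Creb3l1, 0.47, 0.0353, and Trib1, 0.48, 0.0366). The Chac2 and Creb3l1 calls were lost in DESeq2 (0.219 and 0.059), and those of Creb3l1 and Trib1 without cKO 2 (0.268 and 0.378). In H9C2 5 of 23 rose, led by Trib2 (0.69), Creb3 (0.49) and Nfe2l2 (0.34), and 6 fell, a total of 11 of 23 beside 25.1% of all genes, which went to 5 without null 1 or null 2 and to 6 without WT 1 or null 3. Immediate early genes respond within minutes to handling of tissue, and Atf3 and Ppp1r15a can respond with them. In heart RNA 3 of 14 fell, Fosb (−1.48), Fosl2 (−0.61) and Klf4 (−0.25), with a summed level of 802 to 957 CPM in Ctrl and 684 to 856 in cKO, and in footprints 2 of 13 fell, Nr4a1 (−0.73) and Fosl2 (−0.50). Without Ctrl 1 the RNA count was 7, all lower, and without Ctrl 2 it was 7, with 3 higher and 4 lower. The footprint count was 4 without Ctrl 1, all lower, and 5 without Ctrl 2, with 3 higher and 2 lower. In H9C2 5 of 18 rose, among them Dusp1 (0.94) and Ier3 (0.77), and 4 fell, among them Egr1 (−0.77). The part of these genes in the values of Atf3 and Ppp1r15a was not tested.

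Likeness to Atf4, Atf5 and Ddit3 was measured over the 14 RNA and Ribo-seq libraries as the root-mean-square difference of log2(CPM + 0.5), each table centred on its controls, among 9544 genes with the same symbol in mouse and rat. Nearest to Ddit3 were Krt80 (0.157), Proser2 (0.17) and Mllt11 (0.189), against a median of 0.788 over all genes. Krt80, a keratin gene, differed by 1.05 (log2) in heart RNA, 1.57 in footprints and 0.45 in H9C2, which its choice by likeness to Ddit3 in these libraries fixes. Nearest to Atf5 were Orc5 (0.187) and Rfc3 (0.191), both of DNA replication, and Pcgf6 (0.196), a Polycomb subunit, against a median of 0.469. Nearest to Atf4 were Fam241a (0.187), Dctd (0.191), a deoxycytidylate deaminase, and Pcgf6 (0.195), against 0.495. These distances describe the libraries and were not tested.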

How the data were processed

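The authors deposited whole-number read counts per gene for heart RNA and H9C2 and footprint counts per open reading frame for heart Ribo-seq, with no normalization that the values show. Bowtie, Bowtie2, StringTie, featureCounts, HISAT2, STAR, cutadapt and DESeq2, with the builds Rnor_6.0 and GRCm38, are listed in the submitters' processing notes. The tool behind each table, its strand setting and the frame caller are not given in the sources used here. H9C2 columns carry names of annotation files per the file headers, and whether these counts were derived from transcript coverage was not tested. In this series the 4 tRNA samples of 18 were not analysed here.

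Groups came from the labels. Counts were tested on whole tables with edgeR 4.0.16 (quasi-likelihood, TMM factors, filterByExpr, R 4.3.3), with Benjamini-Hochberg adjustment at 0.05. The SE is the absolute log2 fold change divided by the root of F. Every frame entered the footprint fit, and the longest frame by codons stood for its gene. Translational efficiency is the genotype by assay term over 8 libraries, and upstream against longest frames the genotype by frame term with a library block. The fits were tested on simulated data. Alternatives were relative-log-expression factors, library totals, a sole filter of 1 count, DESeq2 1.42.0 (not for frames against the longest), a replicate block, other choices of frame, and each replicate left out.

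The 10 members and all gene lists were chosen with earlier results of these data known. Named by rule were all members and their frames, Mettl1, up to 3 called genes per list and comparison with the smallest adjusted p, and the 3 genes nearest to Atf4, Atf5 and Ddit3. A few listed genes are not analysed here.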

Additional observations from a re-analysis of the deposited data

Results flagged for a closer look

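Both results given here concern members whose every library moved one way in heart and the opposite way in H9C2. Atf4 RNA had a log2 fold change of 0.27 in cKO heart, with both cKO libraries above both Ctrl libraries, and of −0.36 in Mettl1-null H9C2, with all 3 null libraries below all 3 WT libraries. Atf5 RNA had 0.65 in heart and −0.56 in H9C2, again with no overlap between the groups of either system. The difference between the systems was not tested: the heart values come from mouse tissue and the H9C2 values from a rat line, in tables counted apart. The heart call of Atf4 is the less stable of these, since it was lost in DESeq2 and without either of 2 libraries.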

How the results depend on the processing

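In heart RNA DESeq2 called 2 of the 10 members (Atf5 and Ddit3) in place of 4, and 3 were called without any 1 library. On longest footprint frames, 2 in the reported fit, 4 members were called under a sole filter of 1 count, 5 with the frame of most footprints, 5 with summed frames, and 1 to 3 with a library left out, the 1 being Ddit3 without cKO 2. For translational efficiency, 0 members in the reported fit and in DESeq2 (5 members with an adjusted p), leaving out a library gave 0 to 1. In H9C2, 3 in the reported fit, 5 members were called with library totals and with DESeq2, and 3 to 5 with a library left out, the 5 without WT 2. With the replicate block the longest-frame count was 4 (Atf4, Ddit3, Nupr1 and Trib3), and no other count of members moved. Same-numbered libraries deviated together only weakly (correlations of 0.04 in heart RNA, 0.012 in footprints, and −0.002, 0.157 and −0.197 in H9C2). Differently numbered H9C2 libraries ranged from −0.333 to 0.36. With 2 libraries per group in heart, the deviations within a group mirror each other. Whether same-numbered libraries were paired is therefore not settled by these values. The upstream-frame calls of Atf4 and Atf5 and the calls of Ddit3 and Atf5 RNA passed under every alternative run on them.

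Over all features, heart RNA calls went from 2032 to 1080 in DESeq2 and 1155 without cKO 1, and frame calls from 2200 to 1115 without cKO 1 and 1283 without cKO 2. Translational efficiency calls went from 14 to 38 in DESeq2, 131 with the replicate block and 0 to 9 with a library left out. Frames against the longest frame went from 0 to 32 with no library block and 4 with the sole filter, and the count also moved with each library left out. H9C2 calls went from 3720 to 2463 without WT 1, 2396 without null 1 and 2354 without null 3. Scaling by library totals shifted the median change (log2) by 0.081, 0.077 and 0.038 in heart RNA, footprints and H9C2, and the calls to 1769 higher and 506 lower (from 1150 and 882), 1672 and 681 (from 1190 and 1010), and 2341 and 1370 (from 2014 and 1706).

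Signs changed only for values that had not passed. With 1 library left out in turn, heart RNA changes ran from −0.15 to 0.0049 for Ppp1r15b, −0.25 to 0.15 for Atf3, −0.11 to 0.35 for Chac1 (also −0.0047 without cKO 2), −0.05 to 0.25 for Nupr1 and −0.29 to 0.54 for Dctd. In footprints they ran from −0.28 to 1.2 for the longest Atf5 frame, −0.32 to 0.04 for the Ppp1r15a 26-codon frame, −0.10 to 0.07 for the longest Ppp1r15b frame and −0.20 to 0.02 for Cebpb. In translational efficiency they ran from −0.09 to 0.19 for Ppp1r15b, −0.13 to 0.42 for Chac1 and −1.07 to 0.66 for Atf5. Against the longest frame they ran from −1.0 to 0.80 for the Atf5 19-codon frame and −1.2 to 0.39 for Atf4, and in H9C2 from −0.17 to 0.20 for Nupr1 and −0.08 to 0.08 for Cebpb. With library totals heart RNA became 0.0083 for Ppp1r15b and 0.04 for Atf3, and the longest Ppp1r15b frame 0.07. With the frame of most footprints the Ppp1r15a footprint change became −0.12, and translational efficiency 0.64 for Atf5 and −0.30 for Ppp1r15a (0.41 and −0.13 with summed frames). The Atf5 19-codon frame became 0.0057 with no library block, and H9C2 Nupr1 −0.0011 with the replicate block. The cause was not tested beyond the library, scaling or frame that each alternative changes. Depth limits the upstream frames of Ddit3 and the downstream frame of Atf3, which were too thin to test, and the longest Atf4 and Atf5 frames, with 26 to 163 footprints in a library.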
